A study of Homo sapiens with 12 samples.

Results

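An exon-exon junction with an unannotated 5' splice site joins a donor that the gene annotation lacks to an acceptor that it holds. The authors' deposited table of splicing changes gives each listed junction a class, and all junctions of this class were taken. There were 3023 of them among 15980 listed junctions, or 18.9%. They lay in 1566 of the 2994 listed clusters (52.3%) and were assigned to 1409 host genes. A cluster is a set of junctions that share splice sites, and the table gives for each junction the change of its share of the cluster, printed here in percentage points.

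The 5' splice site, or donor, is the first part of an intron that the spliceosome recognises, by base pairing of U1 small nuclear RNA with the exon end and the first intron bases, which are almost always GT in the DNA. Sequences that resemble donors are common in introns, and RNA-binding proteins keep many of them silent. TDP-43, encoded by TARDBP, binds GU-rich RNA and represses unannotated, or cryptic, exons. Affected neurons lose it from the nucleus in ALS (amyotrophic lateral sclerosis) and in FTD (frontotemporal dementia).

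The libraries came from neurons derived from the established human embryonic stem cell line WA01 by expression of the transcription factor NGN2. The TDP-43 shRNA neurons carried a short hairpin RNA against TDP-43 for 7 days, and the control neurons a scrambled hairpin for the same time. There were 3 stranded total RNA-seq libraries in each group, which gave the splicing table, and 3 libraries of 3' end-seq in each group, which read transcript ends. All neurons came from 1 cell line, and nothing in the labels tells whether the replicates were separate cultures. The p-values then measure only the spread between these libraries, which may be technical.

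The splicing table holds comparisons only, with no value per library, so neither the spread between replicates nor the depth is known. Its adjusted p-values belong to clusters, not to single junctions, and none exceeded 0.05. A junction that rose or fell below is one with a positive or negative change in such a cluster, and single junctions have no test of their own. The group that was subtracted is not stated. A positive change was read as a higher share in TDP-43 shRNA neurons, because the junction into the well-known cryptic exon of STMN2, a regulator of microtubules in axons, had a change of 44.9 points in the authors' deposited table. The annotated STMN2 junctions of that cluster had changes of -26.4 and -18.5 points in the authors' deposited table, with an adjusted p of 3.01e-11. TARDBP had 0 rows in the splicing table, and its RNA level was not analysed here.

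The donors themselves can be read where they fall in the RefSeq promoter sequences (GRCh38.p14), which run from 250 bases before to 50 bases after a transcript start. They held 125 of the junctions, with 114 distinct unannotated donors in 86 genes. The 8 below are shown because they carry the 5 largest rises and the 3 largest falls among these, described further on. Each line gives the last 12 bases of the exon and the first 12 of the intron, 5' to 3' on the gene's strand, with the GT that opens the intron in capitals.
ZNF528: tgctctgcgcagGTaagatccgtt
CUL1: tcgccggagccgGTgaggccgaga
ZNF644: acggagcctgagGTgagcggcggc
ZSWIM1: acgctgtggttgGTgagtttggat
FAM228B: ggcgggtctcagGTgagtaactgg
FHL1: aggtcccccctgGTgcgtgcctcg
ELP6: ttctcaacggctGTgcgtgtcctt
NAP1L4: cccgtttttaagGTggagacgtcc
The lines come from chr19:52397654-52397677 (plus strand), chr7:148698752-148698775 (plus), chr1:91021677-91021700 (minus), chr20:45881178-45881201 (plus), chr2:24076604-24076627 (plus), chrX:136147867-136147890 (plus), chr3:47513309-47513332 (minus) and chr11:2991782-2991805 (minus), in that order.

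All 114 unannotated donors in these windows opened with GT, and of 142 annotated donors of listed junctions in such windows 140 opened with GT and 2 with GC. Calling of junctions can itself favour introns that open with GT, and its settings were not given. The GT count is therefore a description and not evidence that the donors are real. The last exon base was G at 83.3% of the unannotated donors (95% exact binomial interval 75.2 to 89.7) and at 85.2% of the annotated ones (78.3 to 90.6). The last 2 exon bases were AG at 43.9% of unannotated and 45.8% of annotated donors, and intron base 3 was G at 54.4% and 52.1%, with overlapping intervals at both. The intervals were apart at intron base 4 alone among the positions compared, and the differences were not tested. Intron base 4 was A at 45.6% of unannotated donors (36.3 to 55.2) against 68.3% of annotated ones (60.0 to 75.9). Intron base 5 was G at 77.2% of unannotated donors (68.4 to 84.5) against 88.0% of annotated ones (81.5 to 92.9), and the intervals overlap. Base 6 was T at 36.0% against 48.6%, with overlapping intervals too. The run GTGAGT opened the intron at 7 of the 114 unannotated and 31 of the 142 annotated donors, and GTAAGT at 6 and 12. No intervals were made for these runs, so the statement on base 4 does not cover them. These sites lie near transcript starts and stand for that minority of the class only. Before the start lay 87 of the 114 unannotated and 107 of the 142 annotated donors, as do most bases of the windows. The intervals cover counting error only, and donors of 1 gene are not independent.

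A search looked on either strand for TGTGTG, which on the gene's strand is a run of the GU-rich kind that TDP-43 binds. A match on the other strand reads CACACA in the gene's RNA, which is not GU-rich, and the count does not separate them. A match was found in 10 of the 100 promoter windows that hold an unannotated donor (10%). Most bases of a window lie before the transcript start. Over all 35116 promoter windows of the same length the share was 17.2%. A match is a description of the letters and not a binding site.

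Over the whole class, rises outnumbered falls, and more so among the large changes. Of the 3023 junctions, 1553 rose (51.4%, 95% exact binomial interval 49.6 to 53.2), 1242 fell (41.1%), and 228 were at 0 as rounded in the table (7.54%). Of all 15980 listed junctions 47.9% rose, 47.6% fell and 4.50% were at 0. The share that rose was 51.2% among junctions with an unannotated 3' splice site and 42.2% among annotated junctions. It was 57.0% among unannotated pairs of annotated sites and 52.5% among junctions with both sites unannotated. Most changes were small: the median size was 0.90 points in the class, 1.1 points for unannotated 3' splice sites, 2.8 points for annotated junctions and 1.6 points over all listed junctions. The class spanned -32.2 points to 91.0 points.

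Changes of 10 points or more in size were fewer in the class (188 junctions, 6.22%) than among all listed junctions (10.7%), and more of them were rises. In the class 140 junctions rose (4.63%) and 48 fell (1.59%) by as much, so that 74.5% of these changes were rises. Among all listed junctions 861 rose (5.39%) and 850 fell (5.32%). Unannotated 3' splice sites had 136 rises and 71 falls (65.7% rises), and annotated junctions had 441 rises and 657 falls. Unannotated pairs of annotated sites had 93 rises and 30 falls (75.6% rises). Junctions with both sites unannotated had 17 rises and 7 falls (70.8% rises). At 5 points, 466 of the class changed (15.4%, beside 24.2% of all listed junctions), with 314 rises (10.4%) and 152 falls (5.03%), where 12.2% and 12% of all listed junctions rose and fell. At 20 points, 41 rose (1.36%) and 9 fell (0.298%), beside 1.35% and 1.48% of all listed junctions. In the class rises thus made up 67.4% of the changes at 5 points, 74.5% at 10 points and 82.0% at 20 points. At 20 points they made up 83.3% for unannotated 3' splice sites and 75.9% for unannotated pairs of annotated sites. Junctions with both sites unannotated had 4 rises and 0 falls of 20 points. At 20 points the share of the class that rose was near that of all listed junctions, and the share that fell was below it, which describes this list and not a test over libraries. The changes within a cluster sum to 0 by construction, so a rise of 1 junction forces falls elsewhere in its cluster.

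**Figure D1:**
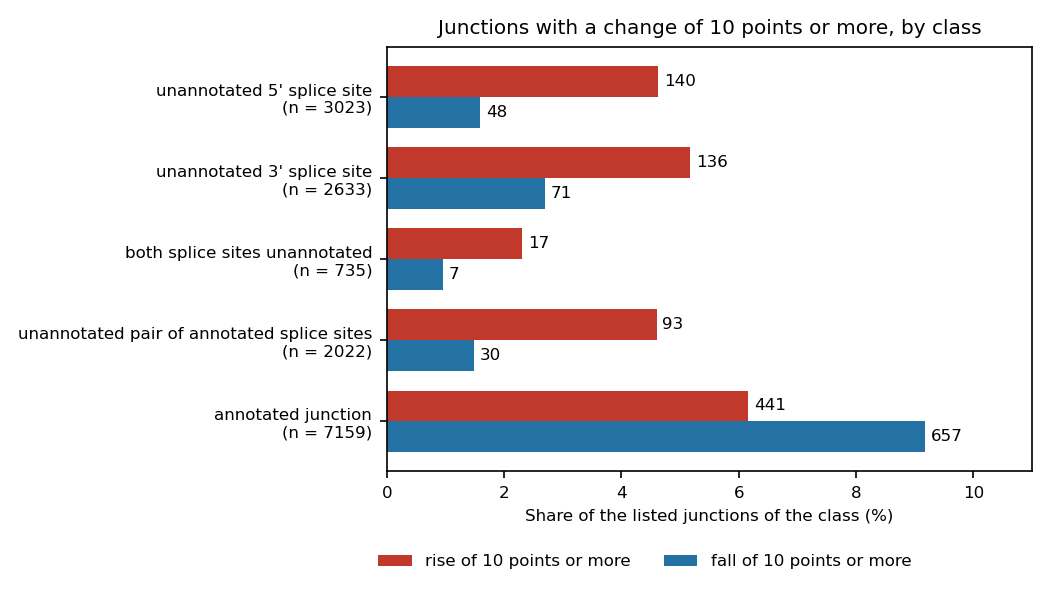
Share of the listed junctions of each class (x axis, percent) with a rise (red) or a fall (blue) of 10 points or more, with the number of junctions at each bar. Junctions with an unannotated 5' splice site had 140 rises and 48 falls, and annotated junctions 441 rises and 657 falls.

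NYNRIN, a gene with a nuclease-like domain, had the largest rise. Its junction chr14:24412691-24412997 (hg38, plus strand) gained 91.0 points in the authors' deposited table. The only other junction of the cluster, the annotated one, lost 91.0 points, with an adjusted p of 6.79e-04 in the authors' deposited table. Both junctions end at the same acceptor, and the unannotated donor lies 1241 nt downstream of the annotated one. A switch of this kind, between 1 unannotated and 1 annotated junction, made up 165 clusters of the class. The unannotated junction rose in 98 of the 165 (59.4%) and fell in 67, with 29 rises and 11 falls of 10 points or more and a median size of 4.0 points.

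VDAC3, a channel of the outer mitochondrial membrane, came next with 68.2 points in the authors' deposited table (adjusted p = 5.96e-04), against -66.0 points for its annotated partner. SLMO1, now called PRELID3A, belongs to a family of mitochondrial lipid-transfer proteins. Its junction rose by 62.7 points and the annotated partner changed by -65.5 points in the authors' deposited table (adjusted p = 1.11e-06). FRY, a large protein that binds microtubules, had a pair of junctions with changes of 56.4 and -56.4 points in the authors' deposited table (adjusted p = 0.0354). ACTL6B encodes a neuronal subunit of the BAF chromatin remodelling complex. Its junction chr7:100650135-100650575 (minus strand) rose by 50.7 points in the authors' deposited table, against -71.6 points for the annotated junction (adjusted p = 6.46e-06).

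The next 7 rises were between 35.1 and 45.4 points. CDO1, the cysteine dioxygenase, rose by 45 points in the authors' deposited table, in a cluster of 8 junctions (adjusted p = 0.00673). BCKDHB, a subunit of the enzyme complex that breaks down branched-chain keto acids, rose by 40.3 points in the authors' deposited table (adjusted p = 2.87e-04). In the authors' deposited table the zinc finger genes ZNF569 and ZNF835 rose by 45.4 and 40.6 points. UNC13B primes synaptic vesicles for release. Its junction rose by 37.8 points in the authors' deposited table (adjusted p = 1.22e-05) from a donor 50578 nt downstream of the annotated one. In the authors' deposited table SEMA3E, a secreted guidance cue, rose by 35.3 points, and EPB41L4A, a protein of the band 4.1 family, by 35.1 points. In all 12 of these genes the annotated partner with the largest change at the same acceptor fell.

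The largest falls were smaller than the largest rises. RAP1GAP, which switches off the small GTPase Rap1, had the largest at -32.2 points in the authors' deposited table (adjusted p = 0.00922), with 32.2 points for the annotated junction. KCNAB2, a beta subunit of potassium channels, likewise had -20.6 points against 20.6 points for its only partner in the authors' deposited table (adjusted p = 0.0427). CEP250, which holds centrioles together, had -18.5 points from a donor 21 nt upstream of the annotated one in the authors' deposited table (adjusted p = 0.00213). CUX2, a transcription factor of upper-layer cortical neurons, had -20.8 points in the authors' deposited table (adjusted p = 0.00606). Its annotated partner gained 31.1 points in the authors' deposited table, and an unannotated acceptor 3 nt away from the annotated one had -10.3 points. UHRF2, a ubiquitin ligase that reads DNA methylation, had -21.5 points in the authors' deposited table (adjusted p = 0.0465). SNAP91, a clathrin assembly protein of synaptic vesicle recycling, had -22.2 points and DCLK2, a doublecortin-like kinase, -23.4 points in the authors' deposited table. These genes used the unannotated donor more in the scrambled control neurons.

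SEMA4D, a membrane-bound semaphorin, held members that moved in opposite directions at 1 acceptor. From 4 unannotated donors the changes were -24.1, -17.5, 2.7 and 12.3 points in the authors' deposited table, within a cluster of 12 junctions (adjusted p = 1.13e-21). The annotated junction to the same acceptor had -1.2 points in the authors' deposited table. The 2 unannotated donors nearest to the acceptor rose and the 2 farthest from it fell.

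**Figure D2:**
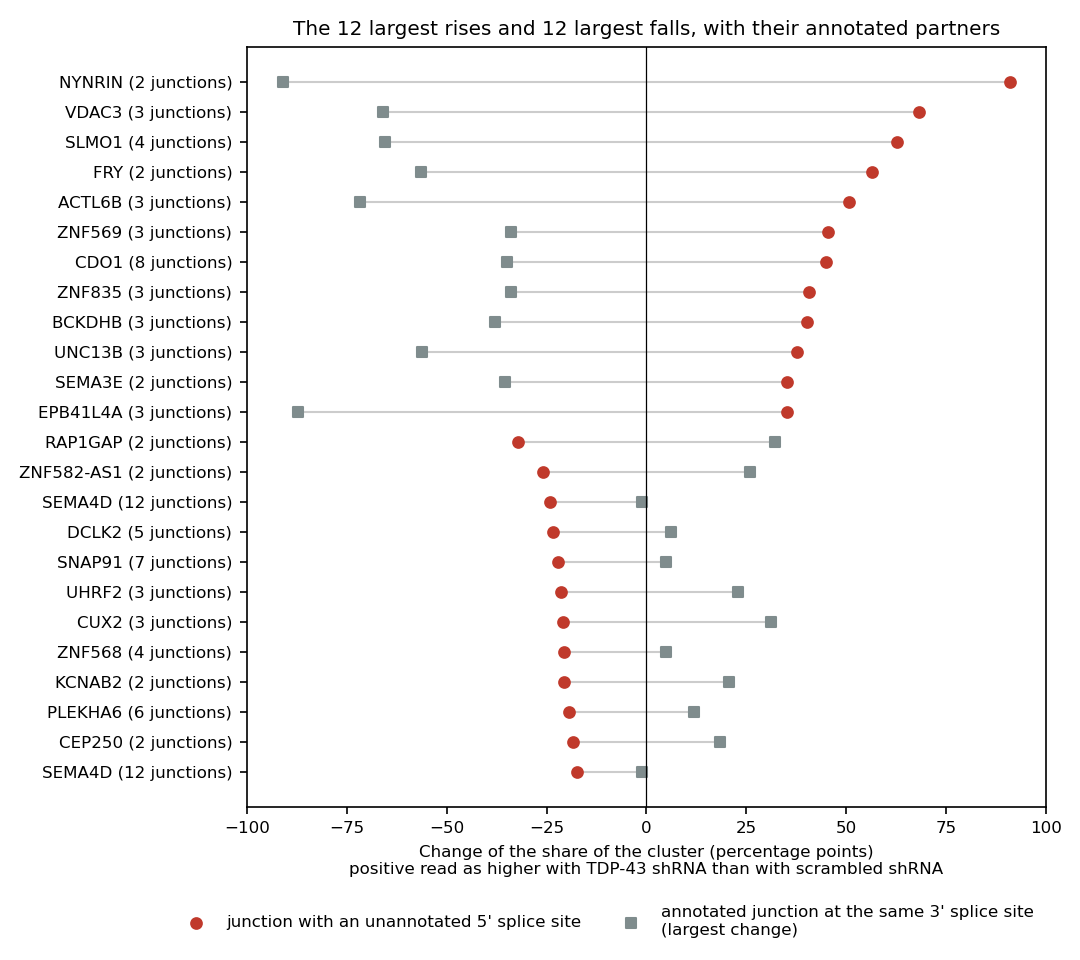
Change (x axis, percentage points) of the 12 junctions with the largest rises and the 12 with the largest falls among junctions with an unannotated 5' splice site (red circles), and of the annotated junction at the same 3' splice site with the largest change (grey squares). The number of junctions in the cluster stands beside each gene, and SEMA4D appears for 2 junctions whose annotated partner had -1.2 points.

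Nearly all members had an annotated competitor. An annotated junction to the same acceptor was listed for 2983 of the 3023 (98.7%), and 40 had none. The class has an annotated acceptor by definition, and clusters are built on shared sites. So high a share follows largely from these definitions. Set against the annotated partner with the largest change, 1127 members rose while the partner fell and 760 fell while the partner rose. In 395 pairs both rose and in 453 both fell. Of the 138 members with a partner that rose by 10 points or more, the partner fell for 133. Of the 45 that fell by as much, the partner rose for 38. Because the changes of a cluster sum to 0, opposite signs are favoured by the measure itself.

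The 3023 junctions used 2853 distinct donors and 1900 distinct acceptors. Only 157 donors were joined to more than 1 listed acceptor of the class, whereas 656 acceptors took in 2 or more unannotated donors. FAM192A, now called PSME3IP1, had 9 unannotated donors at 1 acceptor. ADGRL2, MIAT, NCOA2 and ONECUT1 had 8 each. In 866 clusters (55.3%) the class had 1 junction, in 364 it had 2, and in 336 (21.5%) it had 3 or more, up to 13.

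The clusters of the class were larger than the others. They held a median of 5 junctions, against 3 in the other 1428 clusters, and the largest held 41. An annotated junction was in 1559 of the 1566 (99.6%), a junction with an unannotated 3' site in 985 (62.9%), an unannotated pair of annotated sites in 596 (38.1%), and a junction with both sites unannotated in 297 (19.0%). In 345 clusters (22%) there were annotated junctions and members alone. The largest rise of the cluster was a member in 466 (29.8%) and an annotated junction in 777 (49.6%). The largest fall was a member in 287 (18.3%) and an annotated junction in 1072 (68.5%). The adjusted p of these clusters had a median of 0.00944, against 0.0122 in the other clusters, and reached 6.41e-23 in SYT7. A larger cluster can hold a member more readily, so these figures do not separate size from class.

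Unannotated donors lay mostly downstream of the annotated donor they competed with, inside its intron. Against the nearest annotated donor joined to the same acceptor, 2242 (74.2%) lay downstream at a median of 1737 nt and 741 (24.5%) lay upstream at a median of 465 nt. The distance was 1 to 10 nt for 104 junctions, 11 to 100 nt for 302, over 100 and up to 1000 nt for 925, over 1000 and up to 10000 nt for 992, and more for 660. The median over both sides was 1369 nt.

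**Figure D3:**
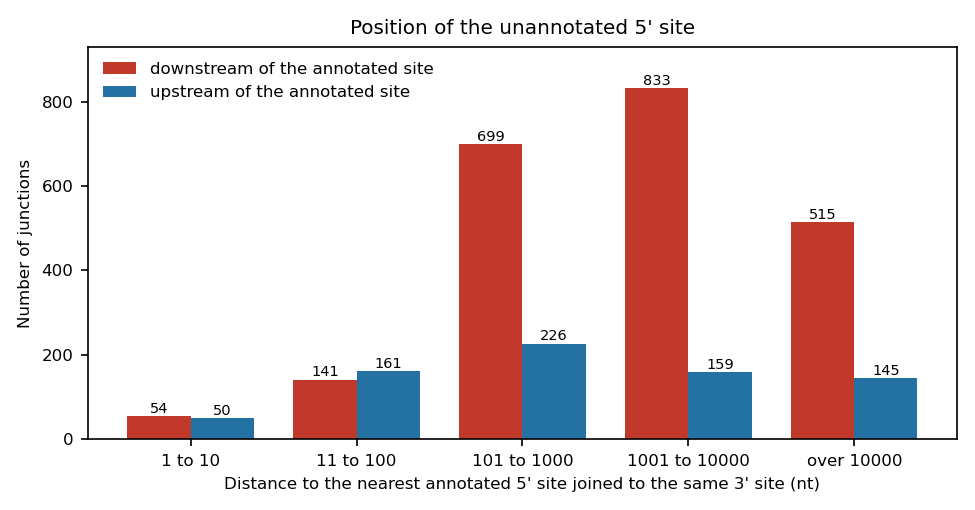
Number of junctions (y axis) by the distance of the unannotated 5' site to the nearest annotated 5' site joined to the same 3' site (x axis, nt), for sites downstream (red) and upstream (blue) of it. Beyond 100 nt, downstream sites outnumber upstream ones in each bin, while at 1 to 100 nt both sides are close in number.

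Beyond 10 nt, rises of 10 points or more were about as frequent at each distance. Within 10 nt there were 0 rises and 1 fall of this size. At 11 to 100 nt 12 junctions rose (3.97% of that bin) and 5 fell (1.66%). Beyond 100 and up to 1000 nt 46 rose (4.97%) and 11 fell (1.19%). From there to 10000 nt 52 rose (5.24%) and 17 fell (1.71%), and farther away 28 rose (4.24%) and 11 fell (1.67%). Upstream donors more than 100 and at most 1000 nt away had 13 rises (5.75%) and 0 falls of this size. At 11 to 100 nt upstream there were 7 rises and 4 falls. Upstream donors over 1000 and up to 10000 nt away had 6 and 4, as had those farther away.

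Donors close to the annotated one belong to a separate kind of event, a small extension or trimming of a known exon. The commonest single offset within 10 nt was 4 nt downstream, with 26 junctions in 25 genes and changes of -3.8 to 7.1 points in the authors' deposited table. The ends of that range were CELSR3, an adhesion receptor that guides axons, and MAU2, which loads cohesin on DNA. PRPF40B, related to a U1-associated splicing factor of yeast, had 6.8 points at this offset in the authors' deposited table. Of the 406 junctions within 100 nt, 159 (39.2%) shifted by a multiple of 3 and could keep a reading frame where the site is coding, which was not looked up.

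Among donors within 100 nt, ZNF835 had the largest rise at 40.6 points and a donor 27 nt downstream in the authors' deposited table. CHID1, a lysosomal protein with a chitinase-like domain, had 30.0 points and a donor 50 nt downstream in the authors' deposited table (adjusted p = 0.00454). USP31, a deubiquitinase, had 22.8 points and a donor 50 nt upstream in the authors' deposited table (adjusted p = 0.0372). SEMA3F, a secreted semaphorin, had 15.7 points at 19 nt upstream, and CHD3, a remodelling ATPase of the NuRD complex, 13.5 points at 46 nt downstream in the authors' deposited table. On the falling side, ZNF582-AS1 had -25.8 points at 60 nt upstream in the authors' deposited table (adjusted p = 0.0145). SSRP1, a subunit of the histone chaperone FACT, had -13.0 points at 6 nt upstream in the authors' deposited table (adjusted p = 0.0473), the one change of this size within 10 nt.

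Some unannotated donors could close an unannotated exon. A pair was counted where a listed junction ends at an unannotated acceptor, a member starts at most 500 nt downstream, and an annotated junction of the cluster skips both. This gave 1097 distinct candidate exons in 706 genes and 766 clusters. They took in 1023 of the members (33.8%), and the other 2000 (66.2%) were in none. The candidate exons had a median length of 103 nt, with quartiles of 67 and 148 nt and a range of 6 to 491 nt. No reads across both junctions are at hand, so a pair is a candidate and not a shown exon.

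Inclusion of these exons went up more often than down at large changes. Both junctions rose for 479 exons (43.7%) and both fell for 292 (26.6%). Both rose by 5 points or more for 93 exons in 86 genes and fell by as much for 17 exons in 17 genes. At 10 points there were 32 and 2. In all 93 of the exons with both junctions up by 5 points or more the skipping junction fell. In a cluster of 3 junctions this fall is forced, because rises must be balanced by falls within the cluster. There it is no separate evidence of inclusion. In larger clusters it was not forced, and its size varied in the authors' deposited table. Examples are -0.4 points in LIMS1 (5 junctions) and -78.0 points in SLC24A3 (4 junctions). Members in a candidate exon rose by 10 points or more in 71 of 1023 cases (6.94%) and fell in 8 (0.782%). Members in none rose in 69 of 2000 cases (3.45%) and fell in 40 (2.00%).

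The largest rise on the donor side was in SLMO1, with a 115 nt exon and 62.7 points out, 20.4 points in and -65.5 points over it in the authors' deposited table. In ADCY1, a calcium-stimulated adenylyl cyclase, a 79 nt exon gained 31.4 points on its donor side and 56.9 points on its acceptor side in the authors' deposited table, and skipping fell by 88.3 points (adjusted p = 4.30e-06). ACTL6B had a 69 nt exon with 50.7 points out of it, 20.9 points into it and -71.6 points over it in the authors' deposited table. EPB41L4A had a 75 nt exon with 35.1, 52.0 and -87.1 points in that order in the authors' deposited table (adjusted p = 8.85e-07). In these exons both sides rose, though not by the same amount.

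KALRN, a signalling protein of dendritic spines, had a 163 nt exon with 31.7 points out, 8.7 points in and -43.9 points over it in the authors' deposited table (adjusted p = 9.98e-10). CAMK2B, a subunit of the calcium/calmodulin-dependent kinase of synapses, had 29.8 points at 1 donor and 2 unannotated acceptors, at 19.5 and 16.4 points, in the authors' deposited table (adjusted p = 2.90e-09). Its exon would thus be 121 or 25 nt long. TRAPPC12, a subunit of a vesicle tethering complex, had a 54 nt exon with 30.3 points out and 10.1 points in, in the authors' deposited table (adjusted p = 1.13e-07). CELF5, an RNA-binding protein of the brain, had a 104 nt exon with 28.6 points out and 16.4 points in, in the authors' deposited table (adjusted p = 3.10e-07).

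INSR, the insulin receptor, stood at the other end of the balance: its 112 nt exon gained 75.6 points on the acceptor side and 10 points on the donor side in the authors' deposited table (adjusted p = 2.12e-05). SLC24A3, a sodium/calcium/potassium exchanger, had 1 donor at 22.4 points and acceptors 3 nt apart at 30.7 and 24.9 points in the authors' deposited table (adjusted p = 6.49e-11). Other exons with both sides up by 5 points or more included AGRN (189 nt), the organiser of the neuromuscular junction, ELAVL3 (167 nt), a neuronal RNA-binding protein, CACNA1C (75 nt), an L-type calcium channel, and ANK3 (33 nt), the ankyrin of the axon initial segment. Donor-side changes of these 4 were 23.3, 22.8, 18.9 and 18.8 points in the authors' deposited table. Very short exons were present too: SNX2, a sorting nexin, had one of 12 nt with 18.3 points out and 33.2 points in, in the authors' deposited table (adjusted p = 0.0441).

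A few unannotated exons were used less after knockdown. SHANK1, a scaffold of the postsynaptic density, had a 24 nt exon with -11.8 points out, -28.1 points in and 39.9 points over it in the authors' deposited table (adjusted p = 4.97e-06). In the authors' deposited table DST, a linker of the cytoskeleton, had a 72 nt exon with -12.8 points out, -9.9 points in and 22.8 points over it (adjusted p = 1.68e-06). PHLDB1 had a 129 nt exon with -15.1 points out and -6.4 points in, in the authors' deposited table (adjusted p = 4.14e-13). In the authors' deposited table DCLK2 had one of 13 nt, with changes of -23.4 and -14.9 points. The length was a multiple of 3 in 10 of the 17 exons that fell (58.8%), in 34 of the 93 that rose (36.6%), and in 463 of all 1097 (42.2%).

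**Figure D4:**
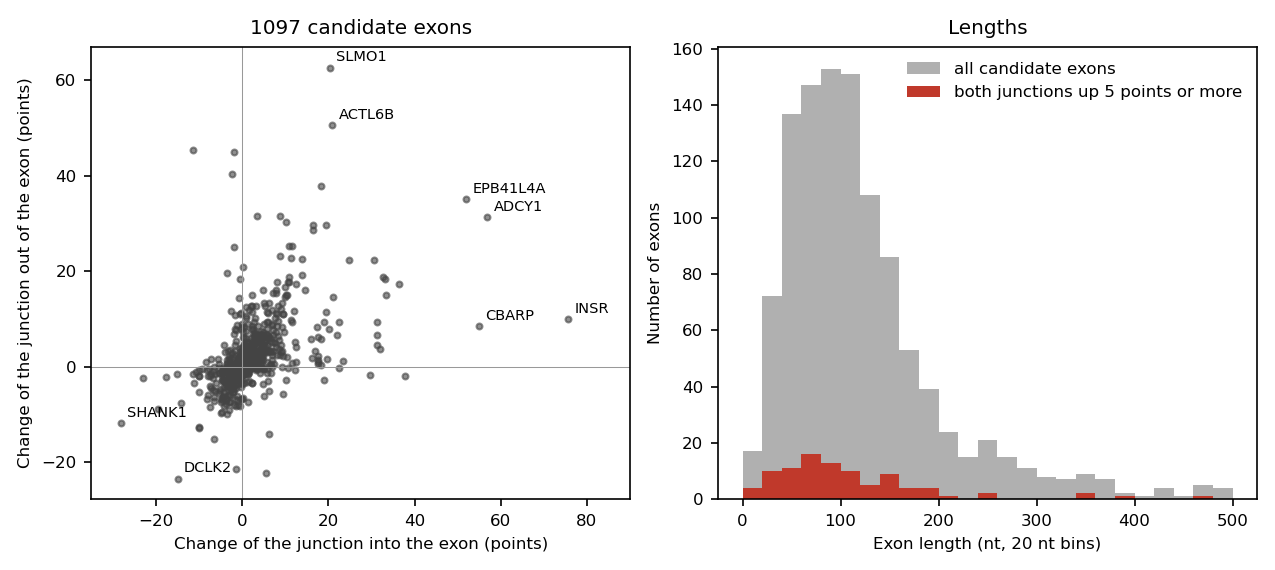
Left, change of the junction out of each of the 1097 candidate unannotated exons (y axis, points) against the change of the junction into it (x axis, points), with some genes named. Right, number of exons (y axis) by length (x axis, 20 nt bins) for all candidates (grey) and for the 93 with both junctions up by 5 points or more (red), whose median length was 87 nt against 103 nt for all.

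The shapes of single clusters show both kinds of event. In ACTL6B, KALRN, TRAPPC12 and CELF5 the unannotated donor and acceptor lie inside the span of a falling annotated junction, and in DST inside that of a rising one. In CUL1, the scaffold of SCF ubiquitin ligases, all 6 junctions end at 1 acceptor and differ only in the donor. One unannotated CUL1 donor, printed above, rose by 15.9 points in the authors' deposited table while the annotated donor had -15.8 points (adjusted p = 0.0192). The other 4 unannotated CUL1 donors changed by -0.4 to 0.8 points in the authors' deposited table. Clusters with a single acceptor like this one numbered 275 (17.6%) and held 444 members, of which 218 rose (49.1%) and 210 fell (47.3%), with 47 rises and 19 falls of 10 points or more.

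**Figure D5:**
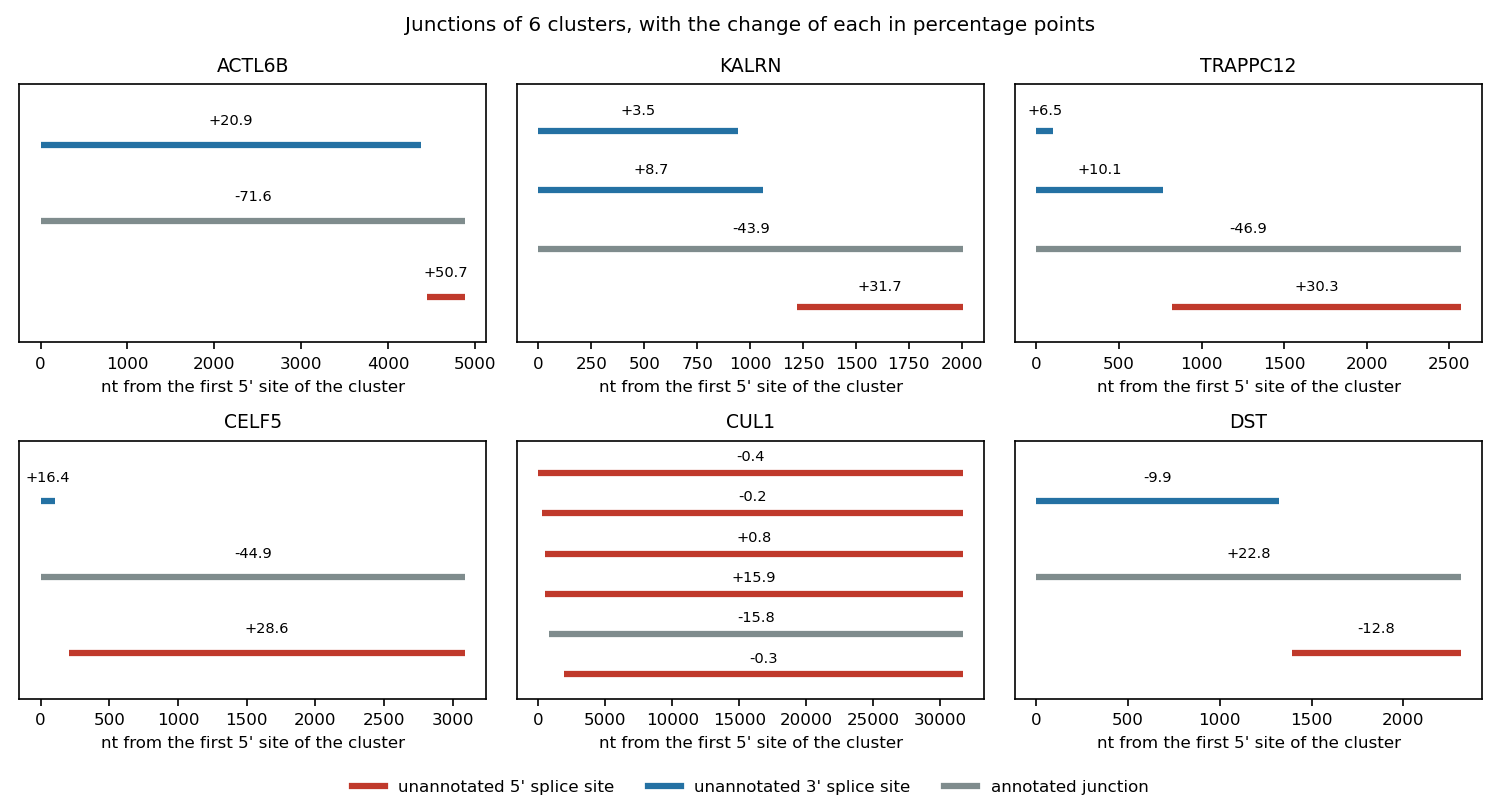
Listed junctions of 1 cluster in each of 6 genes, drawn from donor to acceptor (x axis, nt from the first 5' site of the cluster), with the change of each in points. Red junctions have an unannotated 5' site, blue ones an unannotated 3' site and grey ones are annotated; the annotated junction has -71.6 points in ACTL6B and 22.8 points in DST.

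Some unannotated donors lay before the RefSeq start of the gene, as the end of an unannotated first exon would. Of the members with a matched RefSeq gene (GRCh38.p14), 2849 donors lay inside the gene, 131 (4.35%) in 95 genes before its start at a median of 6434 nt, and 29 past its end. Of the 131, 93 rose and 27 fell, beside 51.4% and 41.1% of the class. There were 7 rises and 0 falls of 10 points or more among the 131. Over the whole class 4.63% rose and 1.59% fell by as much, so these few do not set such donors apart at large changes. Inside the genes 1441 rose and 1195 fell, with 130 and 48 such changes. NADSYN1, an enzyme of NAD synthesis, had 28.8 points from a donor 4318 nt before the start in the authors' deposited table (adjusted p = 1.66e-04). NGRN, a mitochondrial RNA-associated protein, had 28.7 points from 700 nt before the start in the authors' deposited table (adjusted p = 2.06e-04). B3GNT2, a glycosyltransferase, had 22.8 points from 60136 nt before the start in the authors' deposited table (adjusted p = 0.0111).

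Of the printed promoter donors, those of ZNF528 and FAM228B are of this kind. Those of CUL1, ZNF644, ZSWIM1 and FHL1 lie before a RefSeq transcript start but not before the start of the gene. The ELP6 donor lies 24 bases after a transcript start. The ZNF528 donor lies 184 bases before a RefSeq start and had 17.4 points in the authors' deposited table (adjusted p = 0.00637). The FAM228B donor lies 218 bases before a start and had 10.7 points in the authors' deposited table (adjusted p = 0.0353). ZNF644, a zinc finger gene, had 12.6 points from 206 bases before a start in the authors' deposited table (adjusted p = 2.31e-08). ZSWIM1 had 11.6 points in the authors' deposited table, at 72 nt upstream of its annotated donor (adjusted p = 0.0421). FHL1, a LIM domain protein of muscle and other tissues, had -11.4 points, ELP6, a subunit of the Elongator complex, -7.5 points, and NAP1L4, a histone chaperone, -7.2 points in the authors' deposited table.

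The introns removed by these junctions had a median length of 3622 nt (quartiles 1155 and 14791 nt). The median was 2972 nt for junctions with an unannotated 3' site, 3290 nt for annotated junctions, 9274 nt for unannotated pairs of annotated sites and 3777 nt over all listed junctions. The shortest were 69 nt in U2AF1L4 and in DPP7 and 74 nt in TMEM107. Introns over 100000 nt made up 76 of the class (2.51%) and 345 of all listed junctions (2.16%). The longest were 472122 nt in GRIP1, a scaffold of glutamate receptors, with 4.4 points, and 468198 nt in ANK2, an ankyrin of axons, with -2.1 points in the authors' deposited table. Within the class, junctions in candidate exons had a median length of 3098 nt and the others 4156 nt.

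Of the 1409 host genes, 706 held 1 junction of the class, 333 held 2 and 370 (26.3%) held 3 or more. By RefSeq type 1365 were protein-coding, 22 were long noncoding RNAs and 16 were transcribed pseudogenes, and 6 had no match. The 7 genes with 12 or more junctions of the class are given by the range of their changes. ADGRL2, an adhesion receptor of the latrophilin family, had 18 from 15 donors in 3 clusters, with changes of -6.1 to 9.0 points in the authors' deposited table. SYT1, the calcium sensor of fast transmitter release, had 13 junctions from 13 donors with changes of -0.8 to 0.3 points in the authors' deposited table. CNR1, the cannabinoid receptor of neurons, had 12 junctions from 6 donors with changes of -1.5 to 5.4 points in the authors' deposited table (adjusted p = 2.16e-13). Among the others with 12, the long noncoding RNA MIAT, the coactivator NCOA2 and the semaphorin SEMA6D stayed within -7.0 and 3.0 points in the authors' deposited table. TTC3, a ubiquitin ligase, spanned -12.7 to 5.4 points in the authors' deposited table (adjusted p = 4.14e-13).

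Zinc finger genes with a ZNF symbol hosted 118 members in 59 of the 78 such genes listed, beside 1409 of all 2410 listed genes. Of these members 56 rose (47.5%, beside 51.4% of the class) and 53 fell (44.9%, beside 41.1%). At 10 points or more there were 9 rises (7.63%, beside 4.63% of the class) and 2 falls (1.69%, beside 1.59%). ZNF584 had 33.0 points, and ZNF568 and ZNF382 had -20.6 and -13.7 points in the authors' deposited table. The genes are close relatives, many in arrays on chromosome 19, and how reads shared between them were placed is not given in the sources used here.

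In genes reported as splicing targets of TDP-43 most members rose. That list was drawn up with results of these data known, so its direction is not independent evidence. Of 43 genes, 37 were listed in the splicing table and 28 of these hosted members, beside 1409 of all 2410 listed genes. They held 61 members, of which 44 rose (72.1%, beside 51.4% of the class) and 13 fell. At 10 points or more 20 of the 61 rose and 2 fell, where 4.63% of the class rose and 1.59% fell. The example genes ACTL6B, UNC13B, KALRN, ADCY1, CAMK2B, CELF5, AGRN and ELAVL3 above are in it, and RAP1GAP is the one with the largest fall. Over the whole class the median change was 0.1 points, and in this list it was 1.7 points.

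In the other 9 gene groups the share of members that rose ran from 28.6% to 62.5%, beside 51.4% of the class. Hosts are given beside the genes of the group that the splicing table listed, and 1409 of all 2410 listed genes were hosts. Of 38 ALS and FTD genes, 8 were listed and 4 hosted 8 members, none with a change of 5 points: EWSR1 had -2.4 points, DCTN1 -1.8 points, SQSTM1 -1.0 points and MATR3 -0.6 points as their largest in the authors' deposited table. Among 93 splicing factors and other RNA-binding proteins, 37 were listed and 23 hosted 62 members, of which 30 rose and 30 fell. CELF5 and ELAVL3, above, had the largest changes. SRRM3, a neuronal splicing regulator, had 10.3 points in the authors' deposited table, as had its annotated partner (adjusted p = 0.0463). NOVA1, a neuronal splicing factor, had -11.8 points and FMR1, the fragile X protein, -8.9 points in the authors' deposited table. SNRNP70, the U1 protein that takes part in donor recognition, had -6.7 points in the authors' deposited table (adjusted p = 2.90e-07), with 19.2 points for its annotated partner.

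Among 45 voltage-gated ion channel genes, 16 were listed and 7 hosted 8 members, of which 5 rose and 3 fell, CACNA1C and KCNAB2 being the largest. SCN8A, a sodium channel, had 8.9 points in the authors' deposited table (adjusted p = 0.0203). Of 48 synaptic vesicle and active zone genes, 20 were listed and 11 hosted 40 members, with 18 rises and 16 falls. SYT7, a slow calcium sensor of vesicle fusion, had 12 points in the authors' deposited table (adjusted p = 6.41e-23) and ERC2, an active zone scaffold, 7.3 points. The 37 genes of postsynaptic scaffolds and receptors, of which 18 were listed, had 12 hosts and 28 members, with 16 rises and 9 falls. In the authors' deposited table DLG4 (the scaffold PSD-95) had -6.3 points, and the glutamate receptor subunit GRIA3 -5.6 points.

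Cytoskeleton and motor genes (69 in the group, 37 listed in the splicing table) had 25 hosts and 86 members, of which 40 rose and 39 fell. At 10 points or more 2 of them rose and 2 fell. The largest change was that of DCLK2 at -23.4 points in the authors' deposited table, and DST had -12.8 points, both described above. MAP6, which stabilises microtubules, had 19.2 points in the authors' deposited table (adjusted p = 0.00464), close in size to ANK3 above. Regulators of GTPases and kinases of signalling (50, of which 27 were listed) had 20 hosts and 42 members, with 22 rises and 14 falls. AGAP1, a GTPase activator for Arf, had 6.6 points in the authors' deposited table (adjusted p = 0.0398), after RAP1GAP, KALRN and INSR. Chromatin and transcription genes (55, of which 29 were listed) had 21 hosts and 49 members, with 26 rises and 23 falls. ACTL6B, CUX2 and CHD3, described above, are among its hosts. Autophagy, ubiquitin and proteasome genes (46, of which 16 were listed) had 12 hosts and 28 members, with 8 rises and 17 falls. Their median was -0.6 points, with 1 rise of 10 points or more. That rise was in ATG4B, a protease that processes LC3-like proteins, with 11.2 points in the authors' deposited table (adjusted p = 5.75e-08). The ubiquitin ligase UBR4 had -9.7 points in the authors' deposited table (adjusted p = 5.59e-05), and NEDD4L, another ligase, 6.0 points.

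The distance of unannotated donors to cryptic polyadenylation sites was counted for this class only. The counts therefore have no share over all listed junctions beside them. The authors' deposited table of cryptic sites from 3' end-seq held 457 distinct sites, and 1 member had its donor within 1000 nt of one, in the long noncoding gene LOC642366 with -0.1 points. Within 5000 nt there were 31 members in 12 genes, several of them in CNR1, and some lay near a site of another gene. The largest changes were in SLC24A3 and E2F5, a transcription factor of the cell cycle, whose donors had 22.4 and 10.6 points. All the others had changes of -4.2 to 6.1 points. The SLC24A3 site had, in the authors' deposited table, a usage of 31.8% in TDP-43 shRNA neurons and 2.19% in scrambled neurons, and the E2F5 site 33.6% and 3.64%. AGBL4, a carboxypeptidase that trims tubulin, had 27.5 points at its donor in the authors' deposited table. Its cryptic site, 487088 nt downstream in an intron, had a usage of 53.0% in TDP-43 shRNA neurons and 3.42% in scrambled neurons in the authors' deposited table. Usage has 1 value per group and no error.

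Of the host genes, 241 (17.1%) were also in the authors' deposited table of 3' end-seq changes, which called 206 of them longer (85.5%) beside 84.7% of its 2220 entries. They made up 11.5% of the 2092 genes named in that table. Of all genes with a listed junction of any class 16.7% were in it, so the overlap of the hosts was near that background. TRAPPC12 was longer, with a usage index change of 0.403 in the authors' deposited table, and NADSYN1 with 0.332. EPHA8, an ephrin receptor, was longer with 0.280 and had 26.2 points at its donor in the authors' deposited table. AGBL4 and SLC24A3 were shorter, with -0.493 and -0.296 in the authors' deposited table. Of the hosts, 109 (7.74%) appeared in the authors' deposited table of RNA-seq polyadenylation changes, 104 of them with a distal change (95.4%), beside 95.0% of all 841 genes. Of all genes with a listed junction 8.21% were in that table. FRY had 0.526, CACNA1C 0.569 and CEP250 0.621 in the authors' deposited table, the changes of the index being unitless as deposited. Directions in the host genes were thus near those of each table as a whole, and 31 hosts were in both tables.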

How the data were processed

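The values came from the authors' own comparisons of 3 TDP-43 shRNA and 3 scrambled libraries per assay; the tables list changed items only. Tools named in the submitters' processing notes are STAR, SAMtools, Salmon, fastp and DESeq2, with hg38 as the build and no versions or roles. For the junction caller, settings were not given in these sources. The change of intron share is a deposited score, rounded by the authors to 3 decimals as a fraction and multiplied here by 100 to give points. The polyadenylation index change is a deposited score too, on a scale that is not stated. The p-values are adjusted p-values deposited by the authors, 1 per cluster or gene. Introns per cluster are a whole-number count in the deposited table. The usage of a cryptic site is a deposited fraction, printed as a percent; 2 sites listed with 2 slightly different usages were counted once. Another table gives gene values in 6 per-sample columns, which no label ties to samples, so they were left out. The host gene expression tests that were planned were not run for that reason.

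Junctions were taken by the class the authors' table gives. Their start and end are the exon bases beside the intron, as the place of GT in the RefSeq sequences shows, so intron length is end minus start minus 1. Each member was paired with annotated junctions of its cluster at the same acceptor, the nearest giving the shift. Host genes were matched to RefSeq (GRCh38.p14) by symbol for 2850 members and by older symbol for 159, and 14 were unmatched; all 2497 members in genes whose strand could be compared were on the RefSeq strand. A further 408 listed junctions of unknown strand shared no coordinate with a member. Shares have 95% exact (Clopper-Pearson) intervals for counting error. Junctions of 1 gene are not independent and no test over junctions was made.

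The members and gene lists were chosen with earlier results of these data known. The rule for named junctions took the 12 largest rises and falls, at most 4 per gene list, the 3 longest and shortest, members near a cryptic polyadenylation site, the 6 largest changes per polyadenylation table, and hosts with 3 or more members. The last were 370 genes, so those with 12 or more were named. Candidate exons, donors within 100 nt, donors before a gene start, promoter donors and the other genes named were chosen after their values were seen. Some genes that the rule takes are not reported here. The pairing, exon and interval functions were tested on simulated data. Alternatives were a stricter p, larger changes, 1 junction per cluster, another partner and another distance. Software was SciPy 1.17.1, pandas 2.3.3 and numpy 2.4.6 under Python 3.11.15, and matplotlib 3.10.9 for figures.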

Additional observations from a re-analysis of the deposited data

How the results depend on the processing

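With clusters at an adjusted p up to 0.01, 1705 junctions of the class were left of 3023, and 52.3% of them rose, against 51.4% in all. The share that rose was 67.4% at changes of 5 points or more, 74.5% at 10 points or more and 58.1% with the largest change of each cluster only, so the balance depends on the size of change looked at. The median length was 2254 nt at changes of 10 points or more, against 3622 nt. The median shift was 1769 nt against the annotated partner with the largest change, and 1369 nt against the nearest. Members near a cryptic polyadenylation site numbered 31 within 5000 nt and 1 within 1000 nt. Each of these follows from which junctions, partners or distances are counted. Clusters whose strand could be compared with RefSeq held 2497 of the 3023 junctions, all on the RefSeq strand, with 50.7% rises. The junctions left out had no strand to compare, so this alternative does not test the strand. The other values on those clusters, with coordinates counted once, or with partners in any listed cluster, stayed close: 3588 and 3622 nt for the median length, 98.6% and 98.7% with an annotated partner, and 62.8% of clusters with an unannotated 3' site. Alternatives chosen after seeing the data gave 1014 candidate exons at 250 nt or less and 1124 with no skipping junction asked for, against 1097, and 52.0% rises without hosts of 10 or more members. No paired analysis was possible because the tables used hold the authors' comparisons with no value per library. For the same reason no replicate could be left out. The planned expression fits and their alternatives were not run, since no label ties the columns of the gene table to samples. Depth limits are unknown.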
